A study of Mus musculus with 16 samples.

Results

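Chemokines were followed across adult life and old age in mouse muscle. The genes are those whose symbol is Cxcl, Ccl, Cx3cl or Xcl followed by a number, so each was taken by name and not by its signal. The family itself was chosen with earlier results of these data known. The arrays held 33 such genes of 37167 named genes, on 38 of 55588 probes. Whole gastrocnemius, a calf muscle, came from female C57Bl/6J mice that received no treatment. The strain is inbred, and all groups shared its genotype. There were 4 groups, one each at 3, 15, 24 and 29 months of age, with 4 samples per group and 1 one-colour array per sample. The labels do not say whether the samples of a group are different mice, so a p-value here reflects only how far the samples differ, which may be technical.

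Chemokines are small secreted proteins that direct the movement of white blood cells through G protein-coupled receptors. Inflammatory members are induced by cytokines such as interferons and tumour necrosis factor, and homeostatic members are made constantly and place lymphocytes and progenitor cells in tissues. In skeletal muscle, resident macrophages, endothelial cells, fibroblasts and the fibres themselves can make chemokines, and the response to injury draws neutrophils and monocytes into the tissue.

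Signals are log2 brightness minus the 75th percentile of the same array, so that 0 is the level of that percentile and a difference of 1 is a doubling. A level of one probe cannot be set against that of another. The RNA came from whole muscle, where more cells of a type and more RNA per cell cannot be told apart. On an array, 48.0% to 60.9% of spots were marked well above background and none was saturated. Slide 1 carried both younger ages and slide 2 both older ages, so a comparison between slides cannot separate age from slide. All 9 markers of muscle fibres were well above background and tested.

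In the older groups, 4 arrays stood apart in markers of other cells, where the score of a marker list is its average log2 deviation from the mean of the 16 arrays. Replicate 1 of 29 months scored 2.25 for T and NK cells and 2.39 for B and plasma cells, and replicate 4 of 24 months scored 0.67 and 1.99. These arrays were also the highest for dendritic cells, at 2.15 and 1.12. Replicate 4 of 24 months scored 2.99 for adipocytes, with a summed marker level of 296 where the other 15 arrays gave 47.6 to 159. Replicate 2 of 24 months and replicate 3 of 29 months scored lowest for fibroblasts, at -1.86 and -1.58. The latter was the highest array for neutrophils, at 2.41, and the lowest for adipocytes, at -2.05. Results are also given without each of these pairs of arrays where that changed a call.

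Of the 33 chemokines, 13 were well above background on all 16 arrays, namely Ccl2, Ccl5, Ccl6, Ccl8, Ccl9, Ccl11, Ccl19, Ccl24, Ccl25, Cx3cl1, Cxcl12, Cxcl14 and Cxcl16. To be tested, a gene needed a probe that was well above background on every array of some age. The tested chemokines were these 13 with Cxcl10 and Cxcl13, making 15 of 21777 tested genes. Cxcl10 passed through the 3 older ages and Cxcl13 through 29 months alone, so that both were kept because of the ages at which they were high. Of the 18 that were not tested, 7 were well above background on some array and 11 on none.

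**Figure D1:**
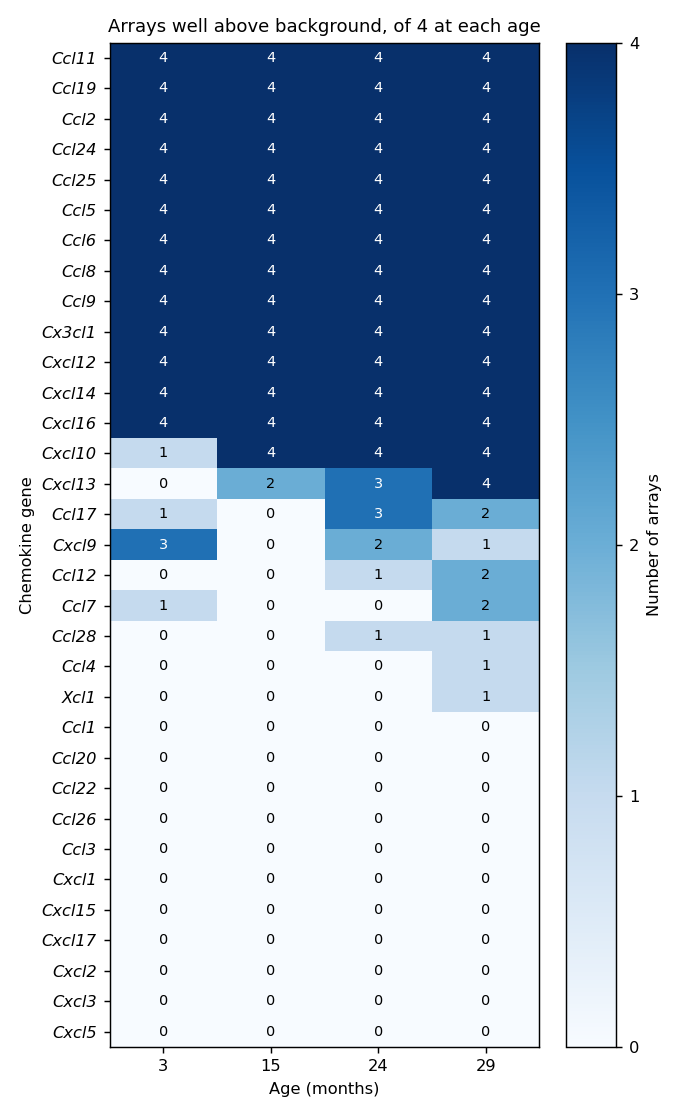
Rows are the 33 chemokine genes and columns the 4 ages in months; the number and the colour of a cell give how many of the 4 arrays were well above background. In 13 genes every cell is 4, Cxcl10 and Cxcl13 have their lowest count at 3 months, and 11 genes are at 0 throughout.

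All 5 chemokines known for drawing neutrophils, Cxcl1, Cxcl2, Cxcl3, Cxcl5 and Cxcl15, were among the 11 never well above background. The others were Ccl1, Ccl3, Ccl20, Ccl22, Ccl26 and Cxcl17. Of the neutrophil markers, 3 of 7 were measured, and the calprotectin subunits S100a8 and S100a9 rose at 29 against 3 months. S100a8 rose by 3.76 on the log2 scale (SE 0.89, limma adjusted p = 0.011) and S100a9 by 3.02 (SE 0.67, adjusted p = 0.00774). The score of the 3 markers was -2.17 to -0.46 at 3 months and -0.19 to 2.41 at 29 months. Their summed level, in multiples of an array's 75th percentile, was 163 to 221 at 3 months and 189 to 267 at 29 months. A sum mainly follows its brightest probe, so it need not show a rise of the dimmer ones. Mmp8 was not well above background on any array.

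At 29 against 3 months, 5 of the 15 tested chemokines changed at a limma adjusted p under 0.05, beside 14.6% of all tested genes. Cxcl10, Cxcl13, Ccl8 and Cx3cl1 were higher, where 6.99% of all genes were called higher, and Ccl25 was lower, where 7.66% were called lower. The 4 that rose draw lymphocytes and monocytes, and Ccl25 is the ligand of CCR9, known from thymus and small intestine. The median change of the 15 was 0.52 on the log2 scale, against -0.04 over all tested genes. Of the changes, 9 were above and 6 below 0. This median includes Cxcl10 and Cxcl13, which were kept because of the ages at which they were high. Without Cxcl10 and Cxcl13, the middle change of the other 13 was that of Ccl19, at 0.09. Among genes that were well above background on all 16 arrays, which leaves out Cxcl10 and Cxcl13, 3 of 13 chemokines were called, beside 15.8% of all genes under that filter.

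The promoters of the 4 chemokines that rose are shown because these genes moved the same way in this comparison. The sequences are from RefSeq on GRCm38.p6, from 250 bases before the transcript start to 50 after it, and the array files name the build mm9. They lie at chr5:92348840-92349139 on the minus strand for Cxcl10, chr5:95956689-95956988 on the plus strand for Cxcl13, chr11:82114935-82115234 on the plus strand for Ccl8 and chr8:94771930-94772229 on the plus strand for Cx3cl1. Each runs 5′ to 3′ along the gene, and capitals mark matches to the 4 motifs searched on both strands.
Cxcl10: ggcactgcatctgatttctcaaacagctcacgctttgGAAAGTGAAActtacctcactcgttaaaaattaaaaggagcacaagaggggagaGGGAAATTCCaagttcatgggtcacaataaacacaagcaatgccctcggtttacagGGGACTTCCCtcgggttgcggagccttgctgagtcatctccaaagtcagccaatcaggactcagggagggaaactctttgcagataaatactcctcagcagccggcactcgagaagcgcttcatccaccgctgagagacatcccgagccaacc
Cxcl13: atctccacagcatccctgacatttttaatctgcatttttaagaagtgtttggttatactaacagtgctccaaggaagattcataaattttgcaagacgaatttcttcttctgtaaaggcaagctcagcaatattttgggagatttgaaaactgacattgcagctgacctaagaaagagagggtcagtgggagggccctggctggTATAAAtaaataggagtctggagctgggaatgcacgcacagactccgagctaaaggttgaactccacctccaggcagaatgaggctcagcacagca
Ccl8: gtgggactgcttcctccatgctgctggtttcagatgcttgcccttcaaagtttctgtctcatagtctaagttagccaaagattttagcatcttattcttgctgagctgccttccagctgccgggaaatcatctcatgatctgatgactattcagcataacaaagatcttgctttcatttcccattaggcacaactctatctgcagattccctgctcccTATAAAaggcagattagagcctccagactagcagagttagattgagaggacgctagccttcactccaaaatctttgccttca
Cx3cl1: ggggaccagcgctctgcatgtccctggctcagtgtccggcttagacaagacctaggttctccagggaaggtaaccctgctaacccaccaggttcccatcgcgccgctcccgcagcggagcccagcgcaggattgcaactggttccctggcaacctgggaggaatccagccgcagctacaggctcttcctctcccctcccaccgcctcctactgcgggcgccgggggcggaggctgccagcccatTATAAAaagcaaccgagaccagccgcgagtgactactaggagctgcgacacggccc
The motifs were the interferon-stimulated response element as GAAA, any 2 bases and GAAA, the interferon-gamma activated site as TTC, any 3 bases and GAA, the kappaB consensus bound by NF-kappaB, and the TATA box as TATAAA. In the Cxcl10 window an interferon-stimulated response element begins at -213 and kappaB matches begin at -159 and -103 from the transcript start. The windows of Cxcl13, Ccl8 and Cx3cl1 hold TATAAA alone, beginning at -46, -32 and -6. No 2 of these marked matches overlap.

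Of the 33 chemokines, 23 had a promoter in the RefSeq table. The interferon-stimulated response element was found in 3 of the 23 (Ccl19, Cxcl10 and Cxcl14), and in 3.44% of all 32851 promoters of this length. A kappaB match was found in 6 (Ccl9, Ccl20, Cxcl1, Cxcl2, Cxcl3 and Cxcl10), and in 4.51% of all promoters. TATAAA was in 9 of the 23 and in 13.6% of all promoters, and the interferon-gamma activated site in 2 (Ccl17 and Cxcl14) and in 8.3%. These are matches of letters and do not show binding. Cxcl1, Cxcl2, Cxcl3 and Ccl20 hold a kappaB match and were not well above background on any array.

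Cxcl10 is the interferon-inducible ligand of CXCR3, a receptor of activated T cells and NK cells. Its 4 arrays of 3 months gave -2.83, -5.49, -5.36 and -5.38, and only the first was well above background. The arrays of 15 months gave -2.66, -2.84, -1.51 and -1.65. Those of 24 months gave -0.47, 0.28, 0.59 and 0.45. The 29-month arrays gave 1.64, -0.08, -1.25 and 0.78. All 8 arrays of 24 and 29 months thus lay above all 8 arrays of 3 and 15 months, and the arrays of 24 and 29 months overlapped. The fitted rise at 29 against 3 months was 5.04 on the log2 scale (SE 0.63) with an adjusted p of 0.00017. As 3 of the 4 baseline arrays were dim, its size is not a measured fold. With each dim array raised to the dimmest signal marked well above background on it, Cxcl10 was 13.6-fold higher, a log2 difference of 3.77. This is not a strict lower bound, as brighter signals can also be unmarked. On replicate 2 of 3 months that dimmest signal was -4.36, and a Cxcl9 probe at -3.41 was not well above background. The 13.6-fold value also applies only under the background subtraction of the main fit. Normexp background correction with an offset of 50 gave less, 2.27 on the log2 scale with an adjusted p of 0.000388.

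Of the other CXCR3 ligands, Cxcl9 was not tested and Cxcl11 was not analysed here. Cxcl9 was well above background on 6 arrays, which were replicates 1, 3 and 4 of 3 months, replicates 1 and 4 of 24 months and replicate 1 of 29 months. Its brighter probe gave -2.55, -3.41, -2.43 and -3.03 at 3 months and -0.42, -3.91, -5.67 and -5.22 at 29 months. At 29 months its highest array was therefore replicate 1, the array with the highest T and NK cell score.

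Cxcl13 is the CXCR5 ligand that gathers B cells into lymphoid follicles. The 3-month arrays gave -5.92, -5.72, -5.59 and -5.57, none of them well above background. At 15 months the values were -3.37, -4.74, -3.69 and -1.92, with replicates 1 and 4 well above background. At 24 months they were -3.49, -3.38, -3.63 and 0.19, with replicates 1, 2 and 4 well above background. All 4 arrays of 29 months were well above background, at 0.57, -2.32, -0.65 and -1.37. Every array of 3 months lay below every array of the later ages, and at 24 months a single array stood 3 or more log2 units above the rest.

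As no 3-month array was measured above background, the size of the change in Cxcl13 is not a measured fold. It is given with those arrays raised, which applies only under the background subtraction of the main fit. As for Cxcl10, the result is not a strict lower bound. Each 3-month array was raised, where its own signal was lower, to the dimmest signal that the scanner marked as above background there. On this basis Cxcl13 was 6.81-fold higher at 29 than at 3 months (fitted log2 change 4.76, SE 0.80, adjusted p = 0.00138). With normexp background correction the fitted change was 1.71 (adjusted p = 0.00762), below the log2 difference of 2.77 with the arrays raised. Its receptor gene Cxcr5 was well above background only on replicate 4 of 24 months and replicate 1 of 29 months. Without these 2 arrays, which also had the highest B cell scores, the fitted change in Cxcl13 was 4.25 (adjusted p = 0.000335).

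**Figure D2:**
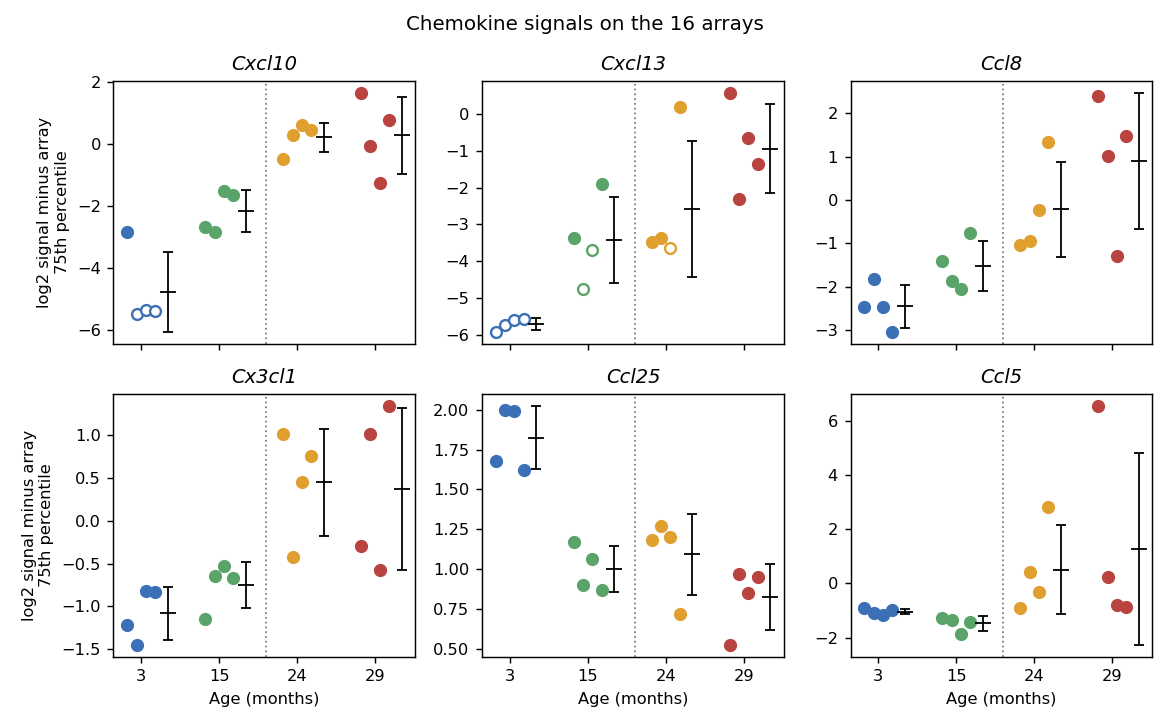
Each panel plots 1 chemokine, with age in months on the horizontal axis and log2 signal minus the array's 75th percentile on the vertical axis; filled circles are arrays well above background, open circles are not, bars are the mean ± SD of 4 arrays and the dotted line separates the slides. Cxcl10, Cxcl13, Ccl8 and Cx3cl1 are higher at 29 than at 3 months, Ccl25 is lower, and Ccl5 has 1 array at 6.54 at 29 months.

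Among the CC chemokines of monocytes, macrophages and effector T cells, 5 of 9 were tested. Ccl8 was the one called at 29 against 3 months, beside 14.6% of all tested genes. Ccl8, a monocyte chemoattractant, gave -2.46, -1.83, -2.46 and -3.04 at 3 months. The values were -1.41, -1.87, -2.06 and -0.77 at 15 months. They were -1.04, -0.94, -0.23 and 1.35 at 24 months and 2.41, 1.01, -1.29 and 1.47 at 29 months. The groups of 3 and 29 months did not overlap, although replicate 3 of 29 months lay within the range of 15 months. The rise was 3.35 on the log2 scale (SE 0.66), or 10.2-fold, with an adjusted p of 0.00389. It was 2.26 with normexp (adjusted p = 0.00622) and 4.08 without replicate 3 of 29 months (adjusted p = 0.000399).

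Ccl6 and Ccl9 are ligands of CCR1 made largely by myeloid cells. Ccl6 gave 0.35, 1.51, 0.47 and 0.06 at 3 months and 1.21, 2.44, 1.23 and 2.90 at 29 months, and these groups overlapped. Its change was 1.35 (SE 0.47, adjusted p = 0.0689), short of the threshold. It passed with normexp, with array weights and without the arrays of lowest fibroblast score, and also without replicate 2 of 3 months, replicate 2 of 24 months or replicate 1 of 29 months. Ccl9 gave 0.08, 0.98, 0.45 and 0.08 at 3 months and 0.72, 1.46, 0.31 and 2.02 at 29 months, a change of 0.73 (SE 0.45, adjusted p = 0.307), which passed without the arrays of lowest fibroblast score.

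Ccl2, the main CCR2 ligand that draws monocytes, did not pass the test in any comparison. Its probe was printed on 10 spots of each array, and gave -0.66, -1.38, -2.43 and -2.25 at 3 months and -1.51, -1.69, -2.38 and -1.16 at 29 months. The change was -0.01 on the log2 scale (SE 0.40, adjusted p = 0.992), and the groups overlapped throughout. The related CCR2 ligands Ccl7 and Ccl12 were each well above background on 3 arrays. For Ccl7 these were replicate 1 of 3 months and replicates 1 and 4 of 29 months, and for Ccl12 they were replicate 4 of 24 months and replicates 1 and 2 of 29 months. Ccl12 gave -5.59, -5.03, -5.23 and -4.17 at 3 months and -1.08, -3.07, -4.39 and -2.86 at 29 months. When no filter was applied, 7 of 33 chemokines were called, beside 5.9% of all genes, with Ccl12 (2.16, adjusted p = 0.0431) and Ccl26 (1.29, adjusted p = 0.0348) added, although Ccl26 was never well above background.

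Ccl5, a product of T cells and NK cells, had the widest spread of the tested chemokines at 29 months. The 29-month arrays gave 6.54, 0.25, -0.81 and -0.86, and those of 24 months -0.92, 0.44, -0.33 and 2.83. The 3-month arrays lay between -1.15 and -0.92 and the 15-month arrays between -1.87 and -1.27. All arrays of 29 months lay above those of 3 months, but the change of 2.31 had an SE of 1.25 and an adjusted p of 0.241. Without replicate 1 the mean of 29 months was -0.47 ± 0.63 (SD, n = 3), against 1.28 ± 3.54 (SD, n = 4) with it. Ccl4 and Xcl1, which are also made by activated T cells and NK cells, were well above background on replicate 1 of 29 months and on no other array. Ccl4 gave -1.52 there and Xcl1 -1.82.

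Ccl5 was highest on the arrays with the highest scores for T and NK cells, replicate 1 of 29 months and replicate 4 of 24 months. Of 14 T and NK cell markers, 8 were measured, and their summed level was 31.0 to 35.4 at 3 months, 26.2 to 35.4 at 15 months, 31.3 to 38.5 at 24 months and 31.9 to 104 at 29 months, with the highest value on replicate 1. On replicate 4 of 24 months the summed level was 34.5, within the range of 3 months. Cd8b1 and Klrd1 were well above background on replicate 1 of 29 months alone. Cd3g and Cd8a were so on it and on replicate 4 of 24 months. Cd3d was well above background on both of these arrays and on replicate 2 of 24 months and of 29 months. Of 9 B and plasma cell markers, 5 were measured. Their summed level was 2.90 to 3.96 at 3 months, 3.24 to 4.31 at 15 months, 3.32 to 12 at 24 months and 3.74 to 13.8 at 29 months. Of 14 macrophage and monocyte markers, 11 were measured, with summed levels of 112 to 140, 119 to 175, 110 to 248 and 142 to 221 in the order of age. At 29 against 3 months no measured marker of the T and NK or macrophage and monocyte lists was called. Jchain alone of the B and plasma cell list was called, and it was higher, beside 6.99% of all tested genes called higher. Cd163 was not well above background on any array. The part of these cells in the chemokine changes was not tested.

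The eotaxins Ccl11 and Ccl24, ligands of the eosinophil receptor CCR3, did not pass the test in any comparison. Ccl11 gave 0.97, 1.54, 1.49 and 1.07 at 3 months and 0.16, 0.86, -0.03 and 1.11 at 29 months, a change of -0.74 (SE 0.40, adjusted p = 0.239). Ccl24 gave -1.42, -0.85, -1.23 and -1.56 at 3 months and -3.07, -1.21, -3.36 and -0.98 at 29 months, a change of -0.89 (SE 0.47, adjusted p = 0.234). At 29 months Ccl24 therefore had a pair of low arrays, replicates 1 and 3, and a pair within the range of 3 months.

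Among the homeostatic, lymphoid and barrier chemokines, 5 of the 11 on the arrays were tested. Cxcl13 and Ccl25 were called at 29 against 3 months, beside 14.6% of all tested genes. Cxcl13 was kept because of the age at which it was high. The Ccl25 probe gave 1.68, 2.0, 1.99 and 1.62 at 3 months. It gave 1.17, 0.90, 1.06 and 0.87 at 15 months, 1.18, 1.27, 1.20 and 0.72 at 24 months and 0.52, 0.97, 0.85 and 0.95 at 29 months. All arrays of 3 months lay above all 12 arrays of the later ages, which overlapped one another. The fall from 3 to 29 months was 2.0-fold (log2 change -1.0, SE 0.15, adjusted p = 0.000489). A second Ccl25 probe, matched to a non-coding transcript of the gene, was above background on too few arrays to be tested.

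Cxcl12 holds haematopoietic and muscle progenitors through CXCR4. It gave 4.46, 4.45, 4.42 and 4.67 at 3 months and 3.14, 4.31, 3.69 and 4.82 at 29 months. Its change was -0.51 (SE 0.38, adjusted p = 0.408), and a second probe for other transcripts of the gene gave -0.60 (SE 0.43, adjusted p = 0.4). At 24 months Cxcl12 was lowest on replicate 2 at 2.57, where the other arrays gave 4.08, 4.63 and 4.15. Replicate 2 was also the lowest array of 24 months in Ccl2, Ccl6, Ccl9, Ccl11, Ccl24, Cxcl14 and Cx3cl1. The summed level of 10 of 10 measured fibroblast markers was 202 to 306 at 3 months, 197 to 217 at 15 months, 47.9 to 200.0 at 24 months and 88.8 to 208 at 29 months. The part of fibroblasts in these values was not tested.

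Cxcl14, a chemokine made constantly in many tissues, gave 3.47, 3.39, 4.05 and 3.12 at 3 months and 3.36, 3.04, 2.89 and 3.95 at 29 months, a change of -0.20 (SE 0.38, adjusted p = 0.781). Ccl19, a CCR7 ligand of lymphoid tissue, had 3 probes, with changes of 0.09, 0.27 and 1.29 at 29 against 3 months and no call for any of them. The probe with the change of 1.29 gave 1.73 on replicate 1 of 29 months and 0.37 on replicate 4 of 24 months, and between -3.17 and -1.57 on the other 14 arrays. As Ccl19 has near-identical copies in the mouse genome, the gene its probes measure is uncertain. Ccl17, a CCR4 ligand, was well above background on 6 arrays and Ccl28, a mucosal CCR10 ligand, on 2.

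Cx3cl1, or fractalkine, is held on the cell surface by a stalk and binds CX3CR1 on monocytes and NK cells. It gave -1.22, -1.45, -0.82 and -0.83 at 3 months and -1.14, -0.65, -0.53 and -0.67 at 15 months. The values were 1.02, -0.42, 0.46 and 0.75 at 24 months and -0.29, 1.02, -0.58 and 1.34 at 29 months. The groups of 3 and 29 months did not overlap, whereas at 29 months a pair of arrays lay below 0 and a pair above 1. The rise was 1.45 on the log2 scale (SE 0.39), or 2.74-fold, with an adjusted p of 0.0221. The call was lost without replicate 1 or 2 of 3 months or replicate 2 or 4 of 29 months (adjusted p up to 0.0656), with scaling by the median (adjusted p = 0.053) and in a fit of those 2 ages alone (adjusted p = 0.0672).

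Cxcl16, the other chemokine with a membrane stalk, is the ligand of CXCR6. It gave -2.18, -2.84, -2.15 and -2.22 at 3 months and -0.67, -2.38, -2.55 and -1.72 at 29 months, a change of 0.52 (SE 0.34, adjusted p = 0.342). The groups overlapped, and the highest array of 29 months was again replicate 1.

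**Figure D3:**
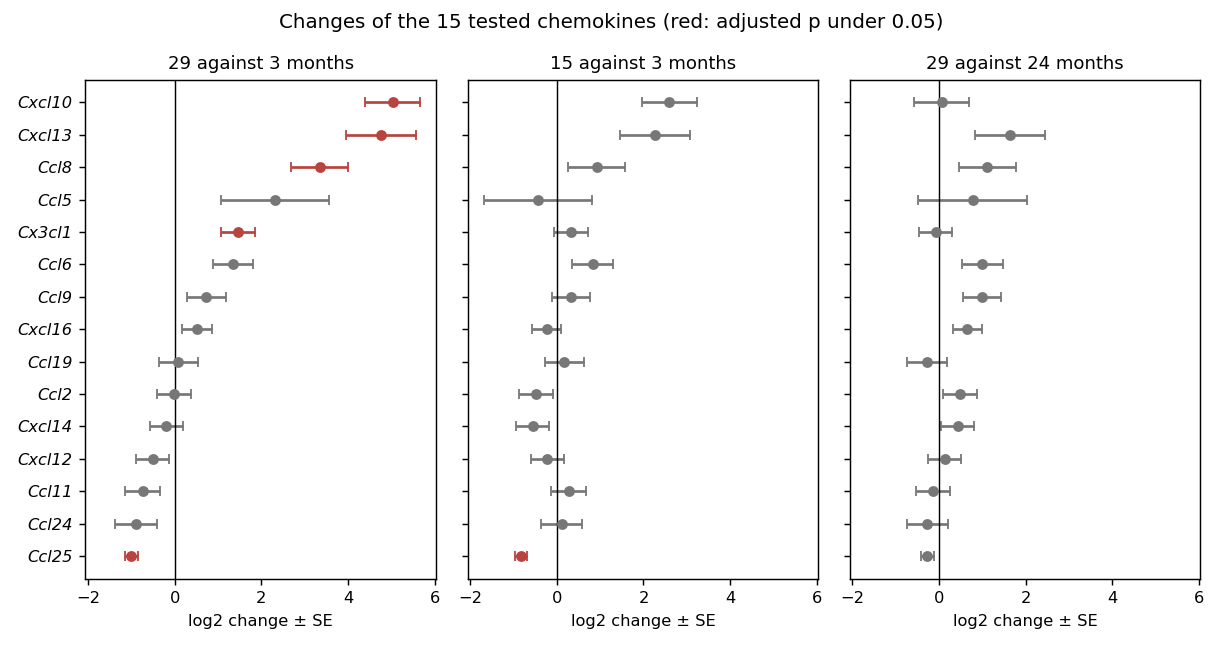
Points are the log2 changes of the 15 tested chemokines (rows) with bars of 1 SE, for 29 against 3 months, 15 against 3 months and 29 against 24 months; red marks an adjusted p under 0.05. At 29 against 3 months 4 genes are red above 0 and Ccl25 below 0, at 15 against 3 months Ccl25 alone is red, and at 29 against 24 months none is.

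The step from 3 to 15 months, which lay within slide 1, asked what changed before old age. One chemokine of the 15 was called, Ccl25, beside 0.978% of all tested genes. It fell by 0.82 on the log2 scale (SE 0.15, adjusted p = 0.0139), which is 1.77-fold. The call was lost without replicate 3 of 3 months or replicate 2 of 15 months (adjusted p up to 0.0586) and with scaling by the median (adjusted p = 0.108). Cxcl10 changed by 2.60 on the log2 scale (SE 0.63, adjusted p = 0.0714) and did not pass, with replicate 1 of 3 months at -2.83 within the range of 15 months. It passed without replicate 1 of 3 months, without replicate 1 or 3 of 29 months, with array weights and without the arrays of lowest fibroblast score. Cxcl13 gave a fitted 2.27 (SE 0.80, adjusted p = 0.262) and passed in a fit of those 2 ages alone, with array weights and without the arrays of highest lymphocyte score.

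From 15 to 24 months, a step between slides, none of the 15 chemokines was called by limma, beside 0.0964% of all genes called. The share of all genes at an unadjusted p under 0.05 was not counted, and 3 chemokines were at that level. These were Cxcl10 with a change of 2.38 (SE 0.63, adjusted p = 0.15), Cx3cl1 with 1.20 (SE 0.39, adjusted p = 0.22) and Ccl11 with -0.88 (SE 0.40, adjusted p = 0.359). The arrays of 15 and 24 months did not overlap in 4 of the 15 chemokines. Cxcl10, Cx3cl1 and Ccl5 were higher at 24 months, and Ccl24 was lower. The share of all genes without overlap was not counted.

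At 24 against 3 months, also between slides, 4 of 15 chemokines were called, beside 4.66% of all genes. Of these, Cxcl10 and Cxcl13 were tested because of the ages at which they were high. With the filter on all 16 arrays, 2 of 13 chemokines were called, beside 883 of 18899 genes. With no filter, 2 of 33 were called, beside 470 of 37167 genes. This comparison shares the 3-month arrays with that of 29 against 3 months. Cxcl10 rose by a fitted 4.98 (SE 0.63, adjusted p = 0.000941), was 13.1-fold higher with its dim 3-month arrays raised as before, and gave 2.24 with normexp (adjusted p = 0.0016). Cx3cl1 rose by 1.53 (SE 0.39), or 2.89-fold (adjusted p = 0.039). Cxcl13 had a fitted change of 3.12 (SE 0.80, adjusted p = 0.0402). With its 3-month arrays raised, Cxcl13 was 2.19-fold higher, and 1.16-fold higher without replicate 4 of 24 months. Both values take replicate 3 of 24 months, itself not well above background, at its own value. These values of Cxcl10 and Cxcl13 with arrays raised also apply only under the background subtraction of the main fit and are not strict lower bounds. Ccl25 fell by 0.73 (SE 0.15), or 1.66-fold (adjusted p = 0.0115). Ccl8 changed by 2.23 (SE 0.66, adjusted p = 0.0693), without overlap between the groups. It passed with array weights, without the arrays of lowest fibroblast score and without replicate 1 or 3 of 29 months.

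The calls of Cx3cl1 and Cxcl13 at 24 against 3 months depended on single arrays. For Cxcl13 the call was lost without any 1 of the 3-month arrays, replicate 1 or 3 of 15 months, or replicate 1, 2 or 4 of 24 months (adjusted p up to 0.0894). Without replicate 4 of 24 months its fitted change was 2.20 (adjusted p = 0.0644), and the mean of 24 months was -3.50 ± 0.13 (SD, n = 3). For Cx3cl1 it was lost without any 1 of the 3-month arrays, replicate 2, 3 or 4 of 15 months, or replicate 1, 3 or 4 of 24 months (adjusted p up to 0.103). The call of Cx3cl1 was also lost with scaling by the median, with no filter and without the arrays of highest lymphocyte score. That of Cxcl13 was also lost with normexp (1.16, adjusted p = 0.0738), with the deposited log2 values, with no filter, in a fit of those 2 ages alone and without the arrays of lowest fibroblast score. The number of chemokines called fell to 2 without any 1 of the 3-month arrays, replicate 3 of 15 months, or replicate 1 or 4 of 24 months. With replicate number as a block, 3 chemokines were called and Cx3cl1 was not.

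The step from 24 to 29 months lay within slide 2. None of the 15 chemokines was called by limma, beside 1.91% of all genes called. The share of all genes at an unadjusted p under 0.05 was not counted, and 1 chemokine was at that level. That gene was Ccl9, with a change of 0.99 (SE 0.45, adjusted p = 0.303). Cxcl13 gave 1.63 (SE 0.80, adjusted p = 0.355), Ccl8 1.11 (SE 0.66, adjusted p = 0.46) and Cxcl10 0.06 (SE 0.63, adjusted p = 0.982). In Cxcl10 the arrays of 24 months, from -0.47 to 0.59, lay inside the range of 29 months, from -1.25 to 1.64.

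A linear trend with age, fitted with a separate level for each slide, uses only the differences within each slide, and its coefficient is per 10 months. On this line 1 of 15 chemokines was called, beside 0.634% of all genes. Ccl25 fell by 0.66 per 10 months (SE 0.11, adjusted p = 0.0107), and the call was lost with scaling by the median (adjusted p = 0.122). Cxcl13 had a coefficient of 2.1 (SE 0.61, adjusted p = 0.155), Cxcl10 of 1.86 (SE 0.50, adjusted p = 0.122) and Ccl8 of 0.98 (SE 0.51, adjusted p = 0.52). The rises of these genes at 29 against 3 months thus passed the test between slides and not on the line. Cxcl10 and Cxcl13 passed on the line with array weights, Cxcl10 also without the arrays of lowest fibroblast score, replicate 1 of 3 months or replicate 3 of 29 months, and Cxcl13 without the arrays of highest lymphocyte score.

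**Figure D4:**
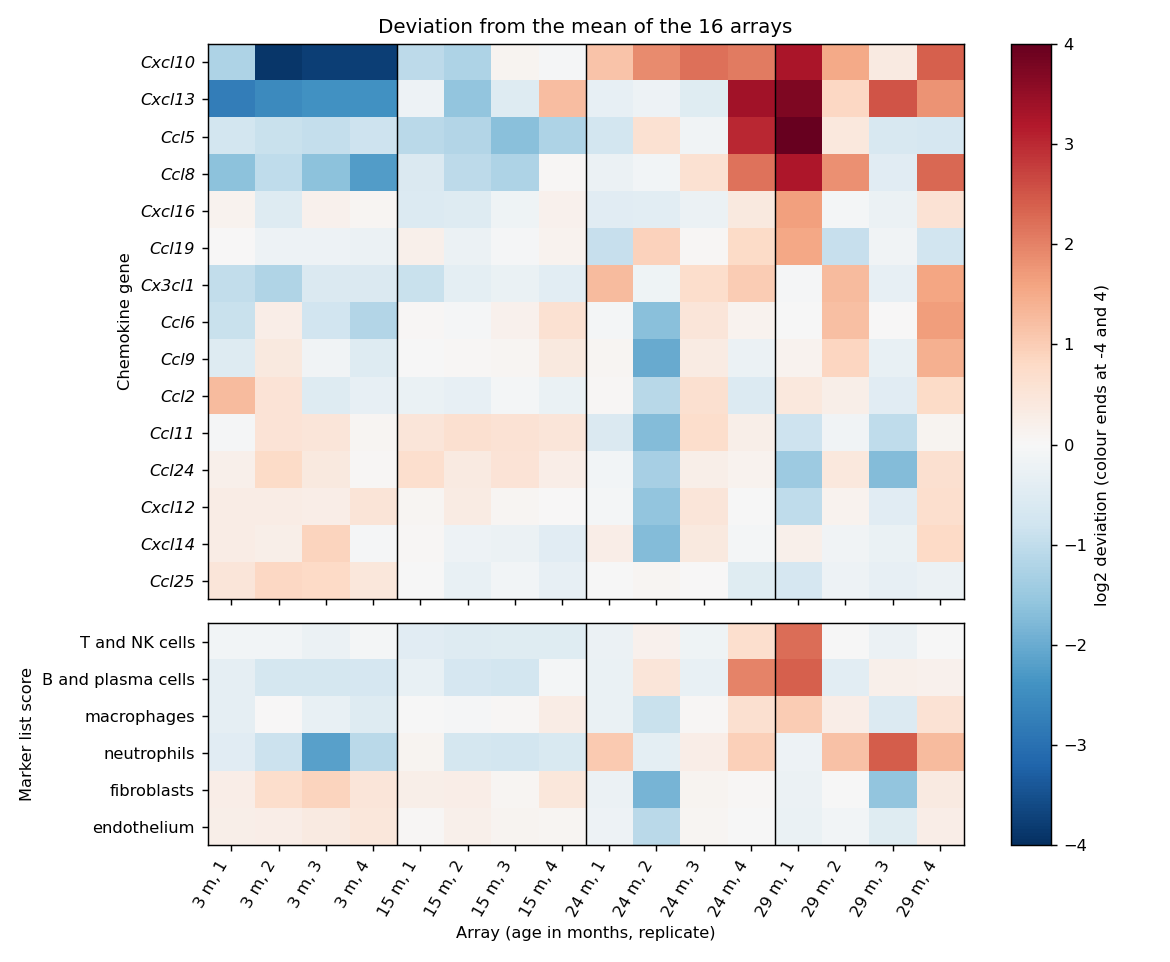
Columns are the 16 arrays by age in months and replicate, and colour is the log2 deviation from the mean of the 16 arrays, ending at -4 and 4; the upper block holds the 15 tested chemokines and the lower block the scores of 6 marker lists. Replicate 1 of 29 months is high in Ccl5, Cxcl13, Ccl8 and Cxcl10 and in the T, NK, B and plasma cell scores, and replicate 2 of 24 months is the lowest of its age in 8 chemokines and in the fibroblast score.

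Chemokines act through receptors carried mainly by white blood cells. Of 18 chemokine receptors, 7 were tested. None was called in any comparison or on the line by limma, and 1 had an unadjusted p under 0.05 at 29 against 3 months. That was Cxcr6, the CXCL16 receptor of T cells, with a change of 1.40 (SE 0.56, adjusted p = 0.114) and 1 array of 29 months at 1.88 where the lowest was at -1.43. Cxcr3, the receptor of CXCL10, was well above background on replicate 1 of 15 months, replicate 4 of 24 months and replicates 1 and 2 of 29 months. Ccr1 was well above background on replicate 1 of 29 months alone.

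Of 5 atypical receptors, which bind ligands without signalling for migration, 4 were tested. Ackr3, the scavenger of CXCL12, gave 1.59, 1.98, 1.88 and 1.81 at 3 months and 0.13, 0.66, -0.50 and 0.97 at 29 months. These groups did not overlap, and the fall was 2.82-fold (log2 change -1.5, SE 0.35, adjusted p = 0.00998). In the same comparison 3 of 9 endothelial markers, all measured, were called lower (Cdh5, Tek and Tie1), beside 7.66% of all tested genes. Also called lower were 4 of 7 smooth muscle and pericyte markers and 3 of 10 fibroblast markers. The summed level of the 9 endothelial markers was 89.4 to 113 at 3 months and 75.2 to 111 at 29 months. The part of any of these cells in the fall of Ackr3 was not tested. Ccrl2, which presents the attractant chemerin, was lower at 24 than at 3 months (-0.67, SE 0.17, adjusted p = 0.0334) and higher at 29 than at 24 months (0.86, SE 0.17, adjusted p = 0.0193). Without replicate 2 or without replicate 4 of 24 months neither call of Ccrl2 passed, and likewise without the arrays of highest lymphocyte score. The first was also lost without any 1 of the 3-month arrays and with no filter, and the second in a fit of those 2 ages alone and without the arrays of lowest fibroblast score.

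Of 19 cytokines and transcription factors that induce chemokines, 10 were tested. Nfkb2 and Relb, the subunits of the alternative NF-kappaB pathway, were called higher at 29 against 3 months, beside 6.99% of all tested genes. None was called lower, beside 7.66% of all tested genes. Nfkb2 gave 0.11, -0.09, -0.04 and -0.09 at 3 months, -0.03, 0.07, 0.42 and 0.43 at 15 months, 1.37, 0.96, 1.02 and 1.43 at 24 months and 1.21, 1.40, 0.92 and 1.95 at 29 months. Every array of 24 and 29 months lay above every array of the younger ages. Its rise at 29 against 3 months was 1.40 (SE 0.19), or 2.63-fold (adjusted p = 0.000278), and at 24 against 3 months 1.22 (SE 0.19, adjusted p = 0.00292). Relb rose by 0.87 at 29 against 3 months (SE 0.24, adjusted p = 0.0243) and by 0.89 at 24 against 3 months (SE 0.24, adjusted p = 0.0469). The first of these was lost without replicate 2 or 4 of 3 months or replicate 1 or 4 of 29 months (adjusted p up to 0.0707), and the second without 13 of the 16 arrays in turn (adjusted p up to 0.131). Both were lost with scaling by the median, with no filter and without the arrays of highest lymphocyte score, the first also in a fit of those 2 ages alone and the second with replicate number as a block (adjusted p up to 0.127). Irf1 and Irf7, which act downstream of interferons, had changes of -0.21 and 0.42 at 29 against 3 months, neither of which passed. Ifng was well above background on replicate 1 of 24 months and replicate 1 of 29 months, and Tnf on replicate 1 of 29 months alone.

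Of 8 genes for chemokine processing and retention, 7 were tested. Sdc4, a heparan sulphate proteoglycan that binds chemokines at the cell surface, gave -0.25, -0.80, -0.37 and -0.47 at 3 months and -0.05, 0.36, 0.31 and 0.26 at 29 months. It rose by 0.69 (SE 0.14, adjusted p = 0.00515), or 1.62-fold. At 29 against 24 months it rose by 0.59 (SE 0.14, adjusted p = 0.0499), a call lost without 13 of the 16 arrays in turn (adjusted p up to 0.126). It was kept in 6 of 13 other settings and lost with scaling by the median, no filter, a fit of those 2 ages alone, replicate number as a block, array weights, and without either pair of arrays that stood apart (adjusted p up to 0.236). Ndst1, which sulphates heparan chains, fell by 0.52 at 29 against 3 months (SE 0.12, adjusted p = 0.0108) and by 0.56 at 24 against 3 months (SE 0.12, adjusted p = 0.0178), and both calls were lost with scaling by the median and with the mean over probes. The second was also lost without replicate 3 or 4 of 3 months. Pf4, Ppbp and Ccl27a, chemokines whose symbols have another form, were tested and none was called, and Ppbp had an unadjusted p of 0.0201 at 29 against 3 months.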

How the data were processed

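Labelled RNA was measured on Agilent 1-colour arrays. The deposited scanner files hold spot intensity from Feature Extraction 10.7.1.1, background-subtracted and unscaled between arrays, and name the build mm9, per the file headers. The deposited series table holds log2 values and was used only as an alternative, matched by feature number (r across probes, not independent replicates, 0.985 to 0.993). How the authors made them, not given in the sources used here, is unknown.

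Outlier spots were left out, spots of a probe were averaged and 26540 probes were named through RefSeq (GRCm38.p6) from their accessions. Signals were log2 transformed, less the 75th percentile of each array over the 55588 probes left after outlier spots were removed. Of these probes, 28435 were then kept, each well above background on every array of some age. The kept probe with the highest mean stood for its gene. The 4 group means were fitted over all 16 arrays in limma 3.58.1, under R 4.3.3 (residual degrees of freedom 12, prior 2.73) and tested two-sided, and p-values were adjusted by Benjamini-Hochberg over 21777 genes. The procedure was tested on simulated data.

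The text names every chemokine that was called, every tested one by role, untested ones that were well above background on some array, and the called genes of the receptor, inducer, processing and other chemokine lists. Chemokines and lists were chosen with earlier results of these data known. Replicate numbers did not pair samples (correlation of deviations of same-numbered arrays -0.47 to 0.30 over 24 pairs). Alternatives were quantile and median scaling, normexp with offset 50, the deposited values, the mean over probes, no filter, a filter on every array, fits of single pairs of ages, a replicate block, array weights, eBayes with trend and robust, a 1.5-fold minimum, and leaving out arrays. The precision is limited by the number of arrays. Some genes of the receptor and inducer lists are not reported here by name.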

Additional observations from a re-analysis of the deposited data

Results flagged for a closer look

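In 7 of 84 groups of 4 arrays, 1 array lay farther from the other 3 than Dixon's criterion at 95% allows, and chance gives about 1 in 20. Ccl5 was 6.54 on replicate 1 of 29 months, where the others lay between -0.86 and 0.25. Cxcl13 was 0.19 on replicate 4 of 24 months, with the others between -3.63 and -3.38. Cxcl10 was -2.83 on replicate 1 of 3 months, with the others between -5.49 and -5.36 and not well above background. Ccl25 was 0.72 on replicate 4 of 24 months, below the others at 1.18 to 1.27. Ccl19 was -0.84 on replicate 1 of 3 months, above the others at -1.07 to -1.04. Cxcl16 was -2.84 on replicate 2 of 3 months, below the others at -2.22 to -2.15. Sdc4 was -0.27 on replicate 4 of 15 months, above the others at -0.74 to -0.72.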

How the results depend on the processing

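At 29 against 3 months, 5 chemokines were called. With a filter on all 16 arrays, which does not test Cxcl10 and Cxcl13, 3 were called, and leaving out 1 array at a time gave 4 to 6. Cxcl10, Cxcl13, Ccl8 and Ccl25 passed in every setting that tested them. Scaling by the median called 1537 genes in all and a fit of only the ages compared 1983, against 3190. At 15 against 3 months, 1 was called. Scaling by the median gave 0, only the ages compared 2, array weights 3, leaving out either pair of arrays that stood apart 2, and leaving out 1 array 0 to 2. At 24 against 3 months, 4 were called. No filter gave 2 of 33 and the filter on all 16 arrays 2 of 13, and leaving out 1 array gave 2 to 5. On the line in age, 1 was called. Scaling by the median gave 0, array weights 3, leaving out either pair 2, and leaving out 1 array 1 to 2. For 24 against 15 and 29 against 24 months the count was 0 in every setting run. With replicate number as a replicate block, the counts were 5 (29 against 3 months), 1 (15 against 3) and 3 (24 against 3), and 2 of 16 arrays correlated best with an array of their own number. The pairs left out, chosen after seeing the data, were replicate 4 of 24 and 1 of 29 months (highest lymphocyte scores) and replicate 2 of 24 and 3 of 29 months (lowest fibroblast scores). So were the test of every probe on its own and the values with dim arrays raised for Cxcl10 and for Cxcl13 without 1 array. Why the counts moved was not tested, except where a filter left genes out. Scaling by the median moved the median of all genes to -0.15 in both 24 against 15 and 24 against 3 months. Over all settings the number of genes called in all was 86 to 1113 at 15 against 3 months (213 as reported), 2 to 139 at 24 against 15 months (21), 9 to 1097 at 29 against 24 months (417), 453 to 1844 at 24 against 3 months (1014) and 52 to 928 on the line (138). Of 22 chemokine changes called or with an unadjusted p under 0.05, none changed sign, and of 68 others 26 did under some setting and 1 was called. Slide as a random block was not run, since each age lay on 1 slide. Dim signals limit the size of changes in Cxcl10 and Cxcl13, and normexp used median spot signals.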
